A study of Mus musculus with 18 samples.

Results

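The aldo-keto reductases described here are 6 mouse genes, Akr1c18, Akr1c14, Akr1c19, Akr1c13, Akr1c12 and Akr1b8, of the 18193 genes named on an Affymetrix mouse expression array. They were chosen from their signal on these same 18 arrays, so their differences between groups are given as a description, with no p-value. All probe sets annotated with one of the 6 symbols were taken, which gave 7 probe sets: 1 for each gene, and 1 more that lists both Akr1c12 and Akr1c13. Of the 6 genes, 5 passed a filter on low signal and entered the tests over 13739 genes. Akr1c12 lay just below that filter, with a mean log2 signal of 3.07 against a limit of 3.15. Its values are given without a test.

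The arrays came from 2 genotypes of female mice on a C57Bl6xCBA F1 background, aged 7 weeks when treatment began. K14NICDER transgenic mice carry a fusion of the Notch intracellular domain to a receptor part that responds to 4-hydroxytamoxifen (4OHT), driven by the keratin 14 promoter. Wild-type mice lack it. Both genotypes received 4OHT for 14 days. The keratin 14 promoter is active in basal keratinocytes, so the transgene was driven in the epithelium and not in the fibroblasts of the dermis. RNA of epidermis, dermis and whole skin was measured on 3 arrays for each tissue and genotype. The labels do not say whether tissues came from the same animals or whether animals were pooled, so every error and p-value reflects only how far these samples differed, which may be technical. The title of the study asks what Notch activity in the adult epidermis does to the dermis.

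Aldo-keto reductases are soluble enzymes that use NADPH or NADH to turn aldehydes and ketones into alcohols, or to run the reverse reaction. The Akr1c enzymes act mainly on the ketone and hydroxyl groups of steroids and prostaglandins, and so set how much active hormone a tissue holds. The Akr1b enzymes, the aldose reductase subfamily, reduce sugars, retinal and the reactive aldehydes formed when lipids are oxidised. In skin these reactions touch hormone, retinoid and prostaglandin signalling and the clearing of toxic carbonyl compounds.

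The 5 Akr1c genes lie side by side on mouse chromosome 13, within 230.41 kb of the GRCm38.p6 assembly. In RefSeq the order along the chromosome is Akr1c14 (chr13:4048991-4090560), Akr1c18 (chr13:4132615-4150646), Akr1c13 (chr13:4191168-4205604), Akr1c19 (chr13:4233503-4248361) and Akr1c12 (chr13:4268172-4279399). Akr1b8 lies on chromosome 6 (chr6:34354146-34368461), next to Akr1b3, Akr1b10 and Akr1b7. The 250 bases before the start used for a gene are printed below. They are given for the 2 genes that were lower in transgenic whole skin, Akr1c18 and Akr1c19, and for the pair Akr1c12 and Akr1c13, which shared a probe set. They are RefSeq sequence of GRCm38.p6, 5′ to 3′ on the strand of the gene, with each copy of the 6 bases CATTAG in capitals.
Akr1c18 (chr13:4150647-4150896, minus strand): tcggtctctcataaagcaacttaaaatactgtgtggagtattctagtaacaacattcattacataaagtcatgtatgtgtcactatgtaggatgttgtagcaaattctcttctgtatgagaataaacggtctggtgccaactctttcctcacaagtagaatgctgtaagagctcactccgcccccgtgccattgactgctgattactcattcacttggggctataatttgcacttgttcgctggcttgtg
Akr1c19 (chr13:4233490-4233739, plus strand): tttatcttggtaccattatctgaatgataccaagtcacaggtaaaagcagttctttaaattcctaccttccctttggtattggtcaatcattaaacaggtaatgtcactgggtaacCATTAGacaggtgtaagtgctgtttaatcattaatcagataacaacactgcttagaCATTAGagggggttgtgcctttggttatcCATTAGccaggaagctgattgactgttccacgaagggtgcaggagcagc
Akr1c13 (chr13:4190937-4191186, plus strand): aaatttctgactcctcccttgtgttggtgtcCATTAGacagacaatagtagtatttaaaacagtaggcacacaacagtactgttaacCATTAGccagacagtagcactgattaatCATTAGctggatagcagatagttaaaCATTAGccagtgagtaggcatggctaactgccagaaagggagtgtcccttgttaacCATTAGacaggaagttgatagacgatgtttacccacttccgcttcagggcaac
Akr1c12 (chr13:4279400-4279649, minus strand): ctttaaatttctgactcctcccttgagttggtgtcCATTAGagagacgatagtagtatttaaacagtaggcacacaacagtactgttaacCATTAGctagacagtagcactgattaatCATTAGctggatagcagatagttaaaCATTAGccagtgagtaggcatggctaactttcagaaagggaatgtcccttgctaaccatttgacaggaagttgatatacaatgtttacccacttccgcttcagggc

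The windows of Akr1c12 and Akr1c13 were alike over nearly their whole length: 235 of 254 aligned positions were identical, or 92.5%. Akr1c19 was more distant, at 59.1% identity to Akr1c12 and 58.1% to Akr1c13. The other pairs among the 6 genes ranged from 47.7% to 56.8%. The start used in the promoter table lay 237 bases inside the annotated gene for Akr1c19, 19 bases inside for Akr1c13 and 10600 bases inside for Akr1c14. The window of Akr1c14 therefore lay wholly inside the annotated gene, that of Akr1c19 mostly and that of Akr1c13 in part.

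A short repeat ran through 3 of the 6 windows. CATTAG was read on the strand of the gene only. It stood 5 times in the window of Akr1c13, 4 times in that of Akr1c12 and 3 times in that of Akr1c19. The windows of Akr1c18, Akr1c14 and Akr1b8 held it 0 times. The repeat was picked out after the sequences were seen. All 32851 promoter windows from the same source were searched over the same 250 bases before the start used. Of these, 3.37% held it at least once and 4, or 0.0122%, held it at least 3 times. Those 4 were the windows of Akr1c13, Akr1c12 and Akr1c19 and the window of Fmo9, a gene of the flavin-containing monooxygenase family on chromosome 1. The letters TGGGAA are the core recognised by RBPJ, the DNA-binding partner of Notch. They had 0 matches on either strand in the 250-base windows of the 6 genes, and 21.6% of the 32851 windows held them. TGACNNNGC, the antioxidant response element bound by Nrf2, had 0 matches and stood in 10.2% of all windows. TGANTCA, the AP-1 site, had 0 matches and stood in 6.75%. These counts say only that the letters are not in these windows.

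**Figure D1:**
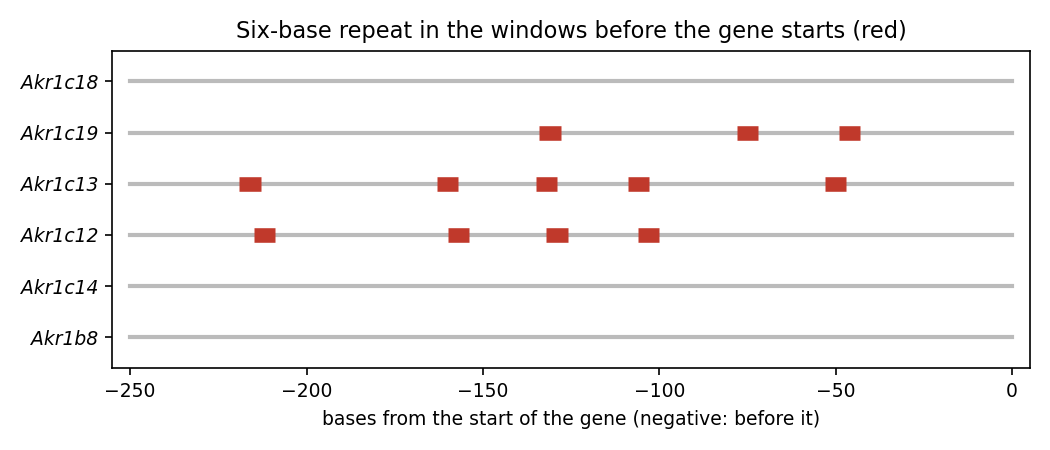
Positions of the 6-base repeat (red) in the 250 bases before the start used for each of the 6 aldo-keto reductases (grey lines). The horizontal axis is the distance from that start in bases. The window of Akr1c14 lies wholly, and that of Akr1c19 mostly, inside the annotated gene. Akr1c13 has 5 copies, Akr1c12 has 4 and Akr1c19 has 3, while Akr1c18, Akr1c14 and Akr1b8 have 0.

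A few patterns stood out among the 6 genes. Akr1c18 and Akr1c19 were lower in transgenic than in wild-type whole skin, 2.60-fold and 4.62-fold. In dermis neither difference passed the test, though the transgenic arrays of both genes all lay below the wild-type ones. The arrays of the genotypes did not overlap in dermis for 9.24% of all genes, in either direction. Akr1b8 was 5.40-fold higher in transgenic than in wild-type epidermis. Akr1c14 and Akr1c13 had no genotype difference that passed the test in any tissue. A call here is an adjusted p under 0.05 from limma over 13739 genes. The 5 tested genes were chosen with these differences known. Their calls, their number of calls, their ranks among all genes and their calls in alternative fits therefore only describe the values. They carry no weight as evidence. In bulk tissue, fewer cells of a type and less RNA per cell cannot be told apart.

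Each labelled layer also held signal of genes listed for cells of the other layer, and the source of that signal was not tested. All 6 fibroblast genes listed, such as Col1a1 and Dcn, were called higher in wild-type dermis than in wild-type epidermis, yet their summed linear signal still reached 3849 to 8936 in wild-type epidermis, against 14605 to 19670 in wild-type dermis. Of the 6 tested genes of differentiated keratinocytes, 5 were lower in wild-type dermis, and the 6 basal keratinocyte genes summed to 10235 to 12911 there, against 13685 to 18160 in wild-type epidermis. In transgenic epidermis and transgenic whole skin all 6 genes of activated keratinocytes, such as Krt6a and Krt16, were called higher than in wild type. In transgenic dermis 4 of 5 genes of the inner root sheath of the hair follicle were called higher, with summed signals of 1920 to 3667 against 38.5 to 67.6 in wild-type dermis. Replicates were tightest in whole skin, where the median SD within a group was 0.20 on the log2 scale, against 0.48 in dermis and 0.46 in epidermis.

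**Figure D2:**
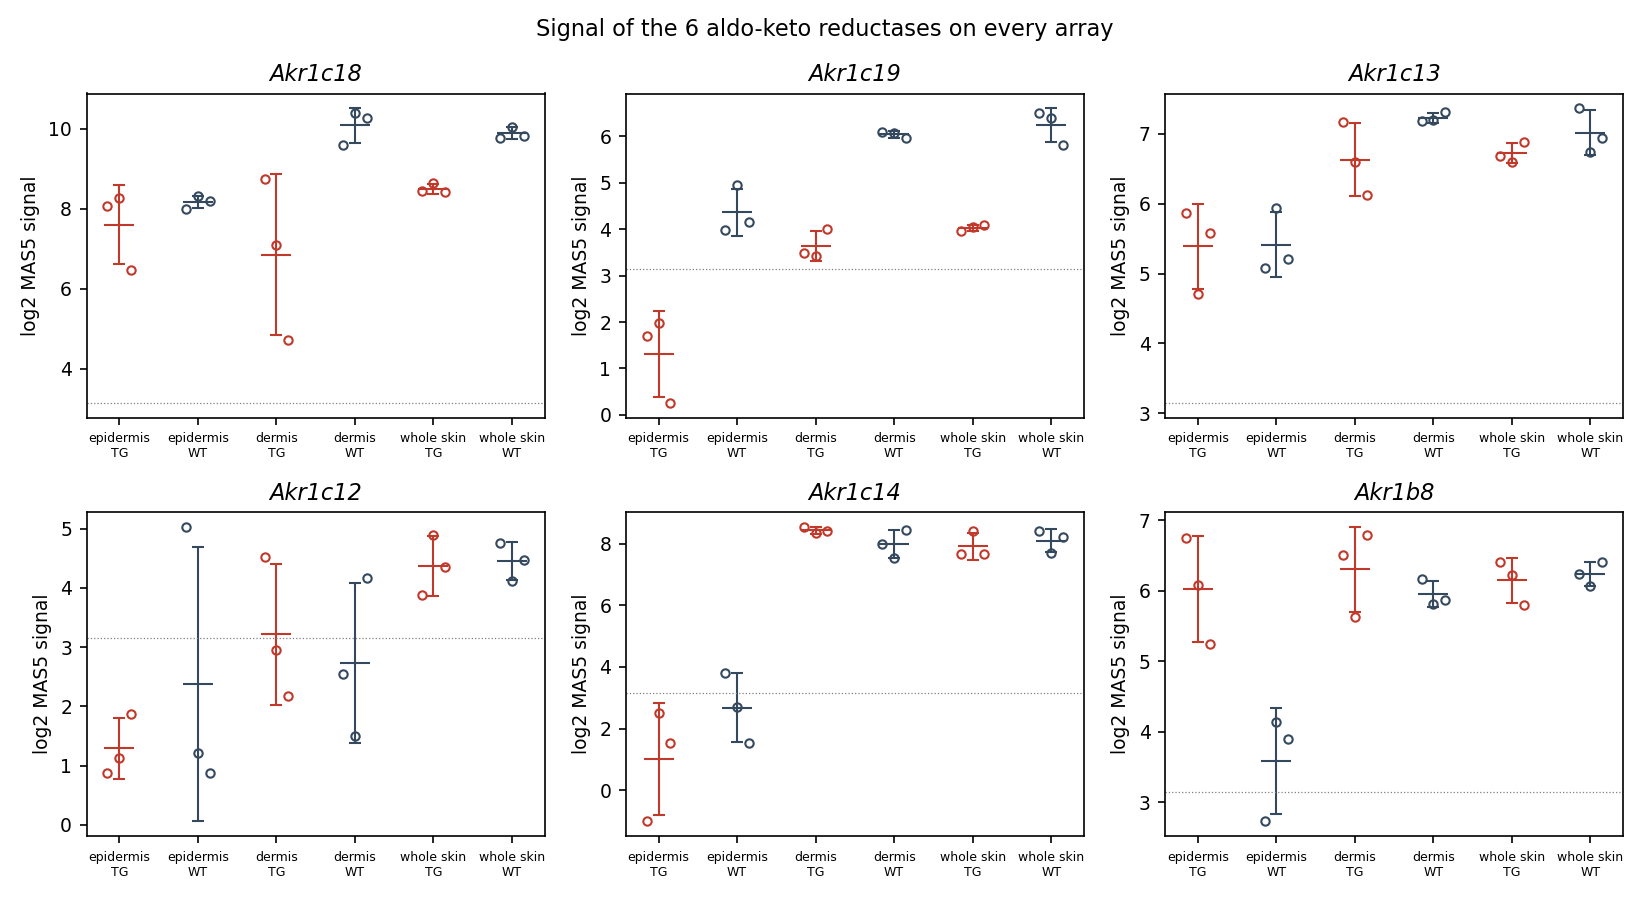
Log2 MAS5 signal (vertical axis) of the 6 aldo-keto reductases on all 18 arrays, in transgenic (TG, red) and wild-type (WT, dark) samples of each tissue. Circles are arrays, horizontal marks and bars are the mean and SD of 3 arrays, and the dotted line is the filter limit of 3.15. The transgenic whole skin arrays of Akr1c18 and Akr1c19 lie below the wild-type ones, and the 3 wild-type epidermis arrays of Akr1b8 lie below all other arrays of that gene.

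Akr1c18 encodes the hydroxysteroid dehydrogenase that inactivates progesterone, best known from the ovary at the end of pregnancy. In whole skin its log2 signal was 8.45, 8.63 and 8.41 on the transgenic arrays and 9.77, 10.05 and 9.81 on the wild-type arrays. The groups did not overlap. The log2 difference was −1.38 ± 0.11 (SE, n = 3 each), a fall that passed the test and was the 60th largest decrease of the 13739 genes. It was called in 7 of 8 alternative fits, all but the fit over all 18 arrays, and without each array in turn. In the same samples the summed fibroblast signal was 11277 to 13968 in transgenic whole skin against 12253 to 14044 in wild-type whole skin, and the summed activated keratinocyte signal was 3997 to 11508 against 1334 to 1681. Of the 6 fibroblast genes, 1 was called lower and 0 higher in transgenic whole skin. The 6 basal keratinocyte genes likewise had 1 called lower and 0 higher, against 1.08% of all genes called lower. The part of these cell types in the fall of Akr1c18 and Akr1c19 was not tested.

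In dermis the 3 transgenic arrays of Akr1c18 were far apart, with log2 signals of 8.73, 7.10 and 4.72, against 9.58, 10.37 and 10.27 in wild-type dermis. All transgenic arrays lay below all wild-type arrays. The log2 difference was −3.22 ± 0.82, or 9.35-fold, the 6th largest decrease of all genes tested, but it did not pass the test. Its size rested on which transgenic arrays were used: it was −4.17 without transgenic replicate 1, where it was called, and −2.16 without transgenic replicate 3. Beside it, the summed fibroblast signal was 12105 to 25031 in transgenic dermis against 14605 to 19670 in wild-type dermis, and the skeletal muscle signal 106 to 11240 against 168 to 7671. The basal keratinocyte signal was 8048 to 8709 against 10235 to 12911, and the activated keratinocyte signal 2073 to 3514 against 1087 to 1214. In each of these 2 keratinocyte lists 0 of 6 genes were called in dermis. The inner root sheath signal was raised as given above. The part of these signals in the dermal values of Akr1c18 and Akr1c19 was not tested. In epidermis the log2 signal was 8.06, 8.26 and 6.48 in transgenic samples and 8.0, 8.31 and 8.18 in wild-type samples. Those groups overlapped, with a log2 difference of −0.56 ± 0.42 that came to −0.0000997 without transgenic replicate 3.

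Across groups, Akr1c18 was highest in wild-type dermis, at a mean log2 signal of 10.08 ± 0.43 (SD, n = 3), followed by wild-type whole skin, transgenic whole skin, wild-type epidermis, transgenic epidermis and transgenic dermis, at 6.85 ± 2.02. Its arrays overlapped between wild-type dermis and wild-type whole skin, and among the last 3 groups between each group and the next. The transgenic whole skin arrays were apart from the groups on both sides of them.

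Akr1c19 encodes a dehydrogenase of hydroxysteroids and other alcohols. In whole skin its log2 signal was 3.95, 4.05 and 4.09 in transgenic samples, against 6.50, 6.39 and 5.82 in wild-type samples. The log2 difference was −2.21 ± 0.22, or 4.62-fold, and it passed the test. It was the 6th largest decrease of all genes tested in whole skin, and it was called in all 8 alternative fits and without each array in turn.

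The same ordering of the genotypes appeared in both separated layers, without passing the test. In dermis Akr1c19 had log2 signals of 3.48, 3.43 and 4.00 in transgenic samples, against 6.10, 6.07 and 5.96 in wild-type samples, a log2 difference of −2.41 ± 0.40 or 5.31-fold. In epidermis it had 1.70, 1.98 and 0.26 in transgenic samples, against 3.99, 4.95 and 4.15 in wild-type samples, a log2 difference of −3.05 ± 0.82 or 8.27-fold. In both layers every transgenic array lay below every wild-type array. In the same epidermis samples 2 of 6 basal keratinocyte genes were called lower, with a summed linear signal of 9417 to 10093 in transgenic epidermis against 13685 to 18160 in wild-type epidermis, and their part in the epidermal values of Akr1c19 was not tested. Each of the 2 Akr1c19 differences was called only in the fit over all 18 arrays. The transgenic epidermis values lie below the filter limit of 3.15, where this signal spreads widely on the log2 scale: with 16 added to the linear signal the log2 difference there was −0.98, against −1.52 in dermis and −1.51 in whole skin. The highest group means of Akr1c19 were in wild-type whole skin and wild-type dermis, whose arrays overlapped, and its lowest was in transgenic epidermis, at 1.31 ± 0.92 (SD, n = 3), apart from all other groups.

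Akr1c14 encodes the hydroxysteroid dehydrogenase that inactivates dihydrotestosterone. Its signal differed between the layers, and no genotype difference passed the test. In dermis it had log2 signals of 8.55, 8.33 and 8.41 in transgenic samples and 7.98, 7.52 and 8.44 in wild-type samples, and in whole skin 7.67, 8.41 and 7.66 in transgenic samples and 8.41, 7.70 and 8.20 in wild-type samples. In epidermis it had −1.01, 2.50 and 1.53 in transgenic samples and 3.80, 2.71 and 1.55 in wild-type samples. The genotypes overlapped in all 3 tissues, with log2 differences of 0.45 ± 0.29 in dermis, −0.19 ± 0.24 in whole skin and −1.68 ± 1.27 in epidermis. The epidermal difference was −0.67 without transgenic replicate 1 and −0.31 with 16 added to the linear signal. The 2 epidermal groups lay apart from the 4 other groups, which overlapped from each to the next in order of their means.

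Akr1c13 and Akr1c12 encode a closely related pair of dehydrogenases of hydroxysteroids and other alcohols. In epidermis Akr1c13 had log2 signals of 5.87, 4.71 and 5.59 in transgenic samples and 5.09, 5.94 and 5.20 in wild-type samples. In dermis it had 7.17, 6.60 and 6.13 in transgenic samples and 7.18, 7.21 and 7.31 in wild-type samples, all transgenic arrays below all wild-type arrays, though the nearest values were 7.17 and 7.18. In whole skin it had 6.69, 6.60 and 6.88 in transgenic samples and 7.37, 6.74 and 6.94 in wild-type samples, which overlapped. None of its genotype differences passed the test: they were −0.02 ± 0.44 for epidermis, −0.60 ± 0.33 for dermis and −0.29 ± 0.18 for whole skin. With quantile normalization the epidermal one was 0.31.

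Akr1c12 was dim and scattered. Its log2 signal was 0.88, 1.13 and 1.87 in transgenic epidermis and 5.03, 1.21 and 0.87 in wild-type epidermis. In dermis it was 4.52, 2.95 and 2.18 in transgenic samples and 2.54, 1.50 and 4.16 in wild-type samples, and in whole skin 3.88, 4.89 and 4.35 in transgenic samples and 4.76, 4.12 and 4.48 in wild-type samples. The genotypes overlapped in every tissue, and every group overlapped the next in order of their means.

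The probe set that lists both Akr1c12 and Akr1c13 tracked the Akr1c13 probe set more closely (Pearson r = 0.85 over 18 arrays) than the Akr1c12 one (r = 0.41), as a description. It had log2 signals of 6.72, 6.55 and 6.98 in transgenic whole skin, against 7.64, 7.07 and 7.25 in wild-type whole skin. Those groups did not overlap, with a log2 difference of −0.57 ± 0.18 that did not pass the test among all probe sets. In epidermis it had 5.81, 5.08 and 4.82 in transgenic samples and 2.63, 5.03 and 4.11 in wild-type samples, and in dermis 7.14, 5.13 and 5.20 in transgenic samples and 6.36, 6.44 and 7.01 in wild-type samples, overlapping in both. Signal on this probe set cannot be assigned to either gene.

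Akr1b8 encodes an aldose-reductase-like enzyme first known as a gene induced by fibroblast growth factor. In epidermis its log2 signal was 6.75, 6.08 and 5.25 in transgenic samples, against 2.73, 4.14 and 3.90 in wild-type samples. The groups did not overlap. The log2 difference was 2.43 ± 0.56, or 5.40-fold, and passed the test, but barely: it was called in 4 of 8 alternative fits and in 1 of 6 fits that left out an array. It was 1.52 with 16 added to the linear signal. The 6 activated keratinocyte genes rose in the same comparison, with a summed linear signal of 10170 to 23272 in transgenic epidermis against 1105 to 2527 in wild-type epidermis, the summed fibroblast signal was 8701 to 12283 against 3849 to 8936, and the basal keratinocyte signal was lower, as given for Akr1c19. The summed macrophage signal was 1615 to 2176 in transgenic epidermis against 962 to 1459 in wild-type epidermis. In this comparison 0 of 6 fibroblast genes and 0 of 5 macrophage genes were called. The part of these signals in the Akr1b8 difference was not tested.

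Outside epidermis, Akr1b8 had no genotype difference that passed the test. It had log2 signals of 6.50, 5.63 and 6.79 in transgenic dermis and 6.17, 5.82 and 5.88 in wild-type dermis. In whole skin it had 6.42, 6.23 and 5.80 in transgenic samples and 6.24, 6.06 and 6.40 in wild-type samples. Both pairs of groups overlapped, with log2 differences of 0.35 ± 0.38 in dermis and −0.09 ± 0.19 in whole skin. Wild-type epidermis, at a mean of 3.59 ± 0.75 (SD, n = 3), was apart from the other 5 groups, whose neighbours in order all overlapped.

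**Figure D3:**
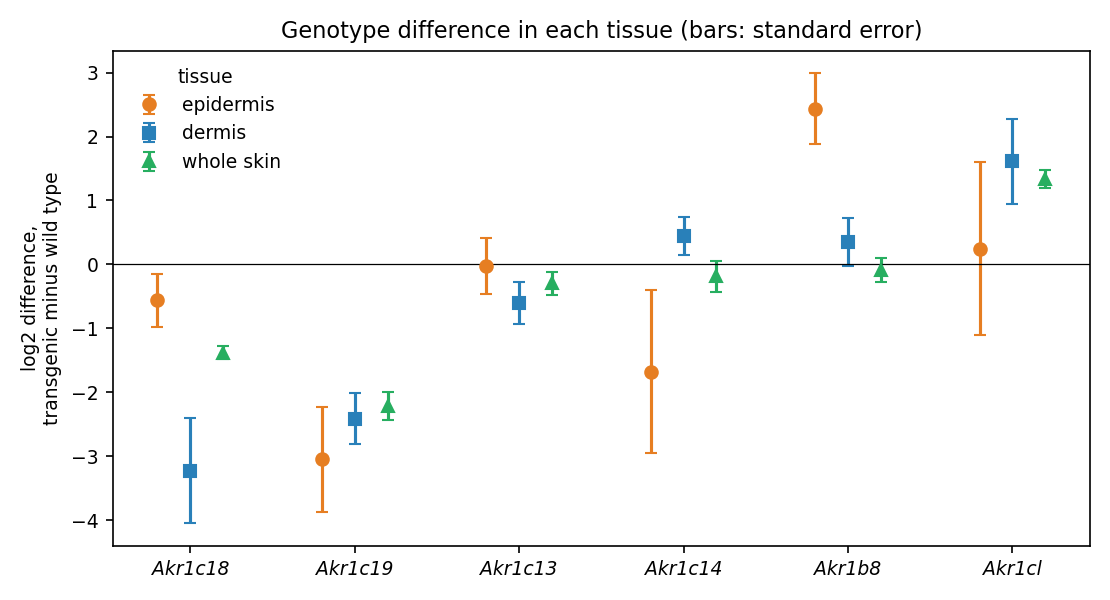
Log2 difference between transgenic and wild-type samples (vertical axis) of the 5 tested aldo-keto reductases and of Akr1cl in epidermis, dermis and whole skin. Points are fitted differences from 3 arrays a group and bars are standard errors. Akr1c18 and Akr1c19 are below 0 in all 3 tissues, Akr1b8 is well above 0 only in epidermis (2.43 ± 0.56), and Akr1cl is at 1.34 ± 0.14 in whole skin.

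Set against all genes, the calls were as follows. In whole skin 1.71% of the 13739 genes were called higher and 1.08% lower in transgenic samples, and 0 of the 5 aldo-keto reductases were called higher and 2 lower. The arrays of the genotypes did not overlap for 24.3% of all genes there and for 2 of the 5. In epidermis 1.54% of genes were called higher and 0.844% lower, and of the 5 genes 1 was called higher and 0 lower. There the arrays did not overlap for 23% of all genes and for 2 of the 5, Akr1b8 above and Akr1c19 below.

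In dermis limma called 0.0655% of genes higher and 0% lower, and 0 of the 5, although 595 genes had an unadjusted p under 0.05. The arrays did not overlap for 9.24% of all genes and for 3 of the 5, Akr1c18, Akr1c19 and Akr1c13, all with transgenic below wild type. The median log2 difference of the 5 genes was −0.60 in dermis against −0.05 over all genes, −0.29 against −0.01 in whole skin, and −0.56 against −0.10 in epidermis. Because the genes were picked on these arrays, nothing is read from these shares.

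Whether the genotype difference was itself unlike in dermis and epidermis was fitted as an interaction. Limma called 0.0218% of all genes higher and 0% lower in this difference, where 1101 genes had an unadjusted p under 0.05, and 0 of the 5 aldo-keto reductases. The dermal minus the epidermal log2 difference was −2.66 ± 1.04 for Akr1c18, −2.08 ± 0.68 for Akr1b8 and 2.13 ± 1.06 for Akr1c14. It was −0.58 ± 0.54 for Akr1c13. It was 0.64 ± 0.81 for Akr1c19 as deposited and −0.55 with 16 added to the linear signal. So the epidermal call of Akr1b8, without a call in dermis, is not shown to be a difference between the layers.

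In wild-type skin all 5 tested genes were higher in dermis than in epidermis, and for each all dermis arrays lay above all epidermis arrays. Over all genes, 12.7% were called higher in wild-type dermis and the arrays did not overlap for 40%. Because the genes were picked on these arrays, nothing is read from the count of 5. Akr1c14 passed the filter only through dermis and whole skin, as its means in both epidermis groups lie below the limit. Akr1c14 had the widest gap, with log2 signals of 7.98, 7.52 and 8.44 in wild-type dermis against 3.80, 2.71 and 1.55 in wild-type epidermis, where the mean of 2.69 lies below the filter limit of 3.15. Its log2 difference of 5.30 ± 0.56 is therefore imprecise in size and is given without a fold. Akr1b8 was higher by 2.36 ± 0.49 on the log2 scale, Akr1c18 by 1.92 ± 0.27, Akr1c13 by 1.82 ± 0.33 and Akr1c19 by 1.69 ± 0.40. With 16 added to the linear signal the log2 differences of Akr1c14 and Akr1b8 were 3.53 and 1.45. The call of Akr1c19 was lost without any 1 of the 3 wild-type dermis arrays, and the other 4 calls held in all 8 alternative fits and without each array in turn. The Akr1c12 probe set did not separate the layers, with a mean log2 signal of 2.73 ± 1.34 in wild-type dermis and 2.37 ± 2.31 in wild-type epidermis (SD, n = 3 each). The probe set that lists both Akr1c12 and Akr1c13 had means of 6.60 in wild-type dermis and 3.92 in wild-type epidermis. Its log2 difference of 2.68 ± 0.56 was called among all probe sets, and cannot be assigned to either gene.

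Of all 13739 genes, 12.7% were called higher and 6.83% lower in wild-type dermis, and the arrays of the layers did not overlap for 40%. The fibroblast genes moved with the aldo-keto reductases here, and so did 4 of 5 endothelial genes, with a summed linear signal of 350 to 500 in wild-type dermis against 48.0 to 93.0 in wild-type epidermis, and 3 of 3 tested adipocyte genes. Mast cell genes were higher in wild-type dermis for 4 of 5, with a summed signal of 480 to 890 against 52.9 to 196 in wild-type epidermis, and macrophage genes for 3 of 5, with 4792 to 6553 against 962 to 1459. The part of these cell types in the layer differences was not tested.

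**Figure D4:**
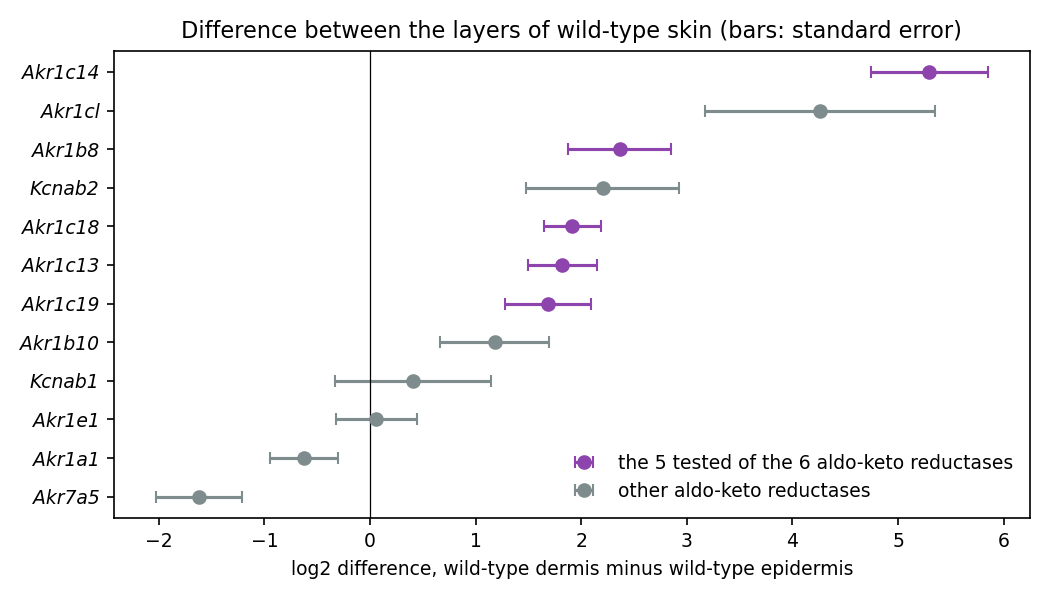
Log2 difference between wild-type dermis and wild-type epidermis (horizontal axis) of the 5 tested aldo-keto reductases (purple) and 7 other aldo-keto reductases (grey). Points are fitted differences from 3 arrays a group and bars are standard errors. All 5 purple points lie to the right of 0, up to 5.30 for Akr1c14, while Akr7a5 lies at −1.62.

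The wider family gives the context. Of 14 other aldo-keto reductases listed, 12 had a probe set and 7 were tested. Akr1cl, a little-studied relative on chromosome 1, moved opposite to Akr1c18 and Akr1c19 in whole skin. Its log2 signal was 9.41, 9.91 and 9.79 in transgenic samples, against 8.35, 8.22 and 8.52 in wild-type samples, a rise of 1.34 ± 0.14 (limma, adjusted p = 0.00361). That call was lost in the fit over all 18 arrays. In dermis its signal was 10.12, 8.78 and 7.18 in transgenic samples and 6.24, 7.46 and 7.54 in wild-type samples, which overlapped. There the log2 difference was 1.61 ± 0.67 and did not pass the test (limma, adjusted p = 0.987).

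The other 6 tested relatives had no genotype call in any tissue, and in epidermis 0 of the 7 had an unadjusted p under 0.05, against 1 in dermis and 1 in whole skin. Akr1e1, which lies on chromosome 13 beyond the Akr1c genes, had log2 differences of −1.35 ± 0.63 between the epidermis groups, −0.84 ± 0.71 between the dermis groups and −0.94 ± 0.48 between the whole skin groups. Akr1b10, a neighbour of Akr1b8, had a log2 difference of only 0.19 ± 0.53 in the epidermis comparison in which Akr1b8 was called, though its sign there turned in the mean over its probe sets. Akr1a1, the aldehyde reductase of most tissues, had 0.04 ± 0.08 in whole skin.

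Between the layers of wild-type skin, Akr1cl was higher in dermis by 4.26 ± 1.09 on the log2 scale (limma, adjusted p = 0.0214) and Akr7a5, which reduces succinic semialdehyde, was lower by −1.62 ± 0.41 (limma, adjusted p = 0.0204). Akr7a5 was called in 6 of 8 alternative fits and in 2 of 6 without an array, and the mean over its probe sets gave −0.69. Akr1cl had 6.24, 7.46 and 7.54 in wild-type dermis against 3.88, 4.90 and −0.32 in wild-type epidermis, where its mean of 2.82 also lies below the filter limit, so the size of its difference is imprecise. The Akr1cl difference was 2.69 without wild-type epidermis replicate 3 and 2.41 with 16 added to the linear signal, and its call was lost with no trend and without dermis replicate 2 or 3. Kcnab2, a subunit of potassium channels with the aldo-keto reductase fold, had 2.20 ± 0.72 and did not pass (limma, adjusted p = 0.0561), but was called in 4 of 8 alternative fits and in 0 of 6 without an array. Its mean of 2.58 in wild-type epidermis also lies below the filter limit, and its log2 difference was as low as 0.99 among the 8 alternative fits. Akr1b10, Akr1a1, Kcnab1 and Akr1e1 were not called, with log2 differences of 1.18, −0.63, 0.41 and 0.06. Thus 1 of the 7 was called higher and 1 lower, against 12.7% and 6.83% of all genes.

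Genes that share substrates with these enzymes were followed through lists chosen with earlier results of these arrays known. Over all 13739 genes, 17.6% had an unadjusted p under 0.05 between the genotypes for epidermis, 4.33% for dermis and 17.8% for whole skin, which is the background for the unadjusted counts below. In the steroid list, 1 of 18 tested genes was called higher and 0 lower in transgenic whole skin. That gene was Hsd11b1, which regenerates active glucocorticoid, with log2 signals of 7.67, 7.48 and 7.84 in transgenic samples against 7.17, 6.71 and 6.92 in wild-type samples (log2 difference 0.73 ± 0.15, limma, adjusted p = 0.0453). The call held in 2 of 8 alternative fits and in 0 of 6 without an array. None of the 18 was called in epidermis or dermis, where 5 and 2 had an unadjusted p under 0.05. Between wild-type layers 8 of 18 were called higher in dermis and 1 lower. Over all genes these shares were 12.7% and 6.83%, which is the background for the layer counts of the lists below. Among them were the progesterone receptor Pgr, with a log2 difference of 2.81 ± 0.32 (limma, adjusted p = 0.000479), and the estrogen receptor Esr1, with 1.99 ± 0.33 (limma, adjusted p = 0.00297). Hsd17b11, a steroid dehydrogenase found on lipid droplets, was higher in dermis by 2.67 ± 0.36 (limma, adjusted p = 0.00106), though the mean over its probe sets gave 1.34 and did not pass. The median of the 18 was 0.76 there, against 0.05 over all genes.

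In the prostaglandin list, 1 of 21 tested genes was called higher and 1 lower in transgenic whole skin. Ptger3, a receptor of prostaglandin E2, had log2 signals of 7.42, 7.77 and 7.91 in transgenic samples against 8.71, 8.51 and 9.01 in wild-type samples, a fall of −1.05 ± 0.16 (limma, adjusted p = 0.0151). Ptges, a synthase of prostaglandin E2, had 8.27, 7.93 and 7.84 in transgenic samples against 7.45, 7.14 and 7.37 in wild-type samples, a rise of 0.69 ± 0.14 (limma, adjusted p = 0.0444). The call of Ptger3 held in 5 of 8 alternative fits and in 3 of 6 without an array, and that of Ptges in 3 of 8 and 1 of 6. In epidermis and dermis 0 of the 21 were called, and 3 and 1 had an unadjusted p under 0.05. Between wild-type layers 5 were higher in dermis and 0 lower, among them Ptger3 by 3.64 ± 0.53 (limma, adjusted p = 0.00158), Ptgfr, the receptor of prostaglandin F2 alpha, by 2.40 ± 0.43 (limma, adjusted p = 0.00421) and Hpgd, which degrades prostaglandins, by 2.11 ± 0.28 (limma, adjusted p = 0.00103).

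The Nrf2 list holds genes that cells switch on against oxidants and reactive carbonyls. In transgenic epidermis 1 of 26 tested genes was called higher and 0 lower. It was Txn1, thioredoxin, with log2 signals of 11.60, 11.55 and 11.37 in transgenic samples against 10.43, 10.49 and 10.39 in wild-type samples (log2 difference 1.07 ± 0.22, limma, adjusted p = 0.0309). It was called in 5 of 8 alternative fits and in 1 of 6 fits without an array, and the mean over its probe sets gave a log2 difference of 0.10. In whole skin 0 were higher and 2 lower: Gsta2, a glutathione transferase, by −1.15 ± 0.18 (limma, adjusted p = 0.0165), and Gclc, the catalytic subunit of the first enzyme of glutathione synthesis, by −0.65 ± 0.13 (limma, adjusted p = 0.0351). Gsta2 was called in 6 of 8 alternative fits and in 3 of 6 without an array, and Gclc in 4 of 8 and 0 of 6. In dermis 0 of 26 were called. An unadjusted p under 0.05 was reached by 8 of the 26 in epidermis, 8 of them higher and 0 lower, by 8 in whole skin, 5 higher and 3 lower, and by 1 in dermis, lower. Between wild-type layers 3 of 26 were called higher in dermis and 1 lower, against 12.7% and 6.83% of all genes. Among the higher ones was the quinone reductase Nqo1, by 1.66 ± 0.48 (limma, adjusted p = 0.0365). Nqo1 was called in 2 of 6 fits without an array. The lower one was the thioredoxin reductase Txnrd1, by −1.34 ± 0.27 (limma, adjusted p = 0.00832).

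The list of other carbonyl and alcohol enzymes held the largest called difference of the 5 lists in epidermis. Aldh1a3, which makes retinoic acid from retinal, had log2 signals of 10.00, 10.12 and 9.64 in transgenic epidermis against 6.38, 5.59 and 4.53 in wild-type epidermis. It rose by 4.42 ± 0.41 or 21.4-fold (limma, adjusted p = 0.00068), and by 2.80 ± 0.37 in whole skin (limma, adjusted p = 0.00815). Cbr2, a carbonyl reductase, had 4.02, 4.80 and 4.46 in transgenic epidermis against 6.65, 6.56 and 6.32 in wild-type epidermis, a fall of −2.08 ± 0.38 (limma, adjusted p = 0.02). Cbr2 was called in 6 of 8 alternative fits and in 1 of 6 without an array, and Aldh1a3 in epidermis in all 8 and all 6. These were the only genotype calls among 14 tested genes, 1 higher and 1 lower in epidermis and 1 higher in whole skin, while in dermis 0 were called and 4 had an unadjusted p under 0.05. Between wild-type layers 5 were higher in dermis, among them the retinal dehydrogenase Aldh1a1 by 2.62 ± 0.58 (limma, adjusted p = 0.0119), and 1, Rdh12, was lower by −1.30 ± 0.25 (limma, adjusted p = 0.00601).

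The genes with signal most like each aldo-keto reductase over the 18 arrays were named by Pearson correlation, as a description over arrays that share tissue and genotype. Akr1c18 was followed most closely by Xkr8, a membrane scramblase (r = 0.91), then Col16a1, a collagen (r = 0.88), and Daam2, a formin (r = 0.88). Akr1c19 was followed by Ctnnal1 (r = 0.90), the growth factor Bmp4 (r = 0.88) and the planar polarity gene Prickle1 (r = 0.88). The genes nearest to Akr1c14 were Esr1, Cavin2, a gene of caveolae, and Cd163, a scavenger receptor of macrophages, all with r = 0.97.

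Akr1c13 was nearest to Phip (r = 0.97), Lrig2 (r = 0.96) and Cwc27 (r = 0.96), and Akr1b8 to the chaperonin subunit Cct2 (r = 0.94), Cttnbp2nl (r = 0.92) and the protease gene Ctsc (r = 0.92). Among the aldo-keto reductases themselves r was 0.80 between Akr1c13 and Akr1c14, and 0.67 between Akr1c18 and Akr1c19. For Akr1b8, r was 0.08 with Akr1c18 and 0.05 with Akr1c19. No shared control or function is read from these values.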

How the data were processed

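RNA was measured on 18 Affymetrix arrays, 3 for each of 3 tissues and 2 genotypes. The submitters' processing notes name MAS5; its version was not given in the sources used here. As deposited, the authors' table holds log2 values of the signal for 45037 probe sets, a scale read from the values, which ran from −7.52 to 14.42. Back on the linear scale, the mean of each array without the top and bottom 2% was 98.9 to 99.5.

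Names came from the platform's annotation: 34945 probe sets had 1 symbol, 932 several and 9160 none here. The probe set with the highest mean stood for its gene, and genes above the 30th percentile, a log2 value of 3.15, were kept. Values were used as deposited. Each comparison was fitted on the arrays of its own tissues in limma 3.58.1 (R 4.3.3; lmFit, eBayes with a trend), p-values were adjusted by Benjamini-Hochberg over 13739 genes, and the threshold was 0.05. The code was tested on simulated data. Fold changes and standard errors come from these fits; SDs are over 3 arrays. None of the 153 array pairs was identical.

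Alternatives were the fit over all 18 arrays, every probe set, the mean of probe sets, no filter, 16 added on the linear scale, quantile normalization, no trend, a replicate block, and leaving out each array. Replicate numbers were not taken as pairs in any comparison fitted. The number of arrays limits the precision.

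The genes and all lists were chosen with earlier results of these data known. The genes named were the 6 chosen, the tested relatives, up to 4 called genes of each other list with the smallest adjusted p in a comparison, and the 3 genes most correlated with each chosen gene. Promoter windows are RefSeq sequence (GRCm38.p6), aligned globally with Biopython 1.88 (match 2, mismatch −1, gap −2, extension −0.5).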

Additional observations from a re-analysis of the deposited data

How the results depend on the processing

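The counts of called genes moved with the settings more than the differences did. In epidermis 327 genes were called, against 1044 with all 18 arrays in the fit, 60 without a trend and 114 with a replicate block; leaving out 1 array gave 58 to 1385, the highest without wild-type replicate 2. In dermis 9 were called, against 38 with all 18 arrays, and 2 to 46 without 1 array, the highest without transgenic replicate 1. In whole skin 384 were called, against 37 with all 18 arrays, 240 with the mean of probe sets, 84 without a trend and 251 with a replicate block, and 95 to 410 without 1 array. For the difference of the genotype effects 3 were called, against 42 with all 18 arrays, 7 with the mean of probe sets and 9 with 16 added. It was 0 with every probe set, quantile normalization, no trend or the replicate block, and 0 to 54 without 1 array. Between wild-type layers 2684 were called, against 4035 with all 18 arrays and 5889 with every probe set, and 1253 to 4040 without 1 array. The share called higher there was 65.05%, against 49.35% with every probe set and 51.33% with the mean of probe sets.

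Of the 5 aldo-keto reductases tested, 1 was called in epidermis, against 2 with all 18 arrays and 0 with every probe set, no filter, no trend or the replicate block, and 0 to 1 without 1 array. In dermis 0 were called, against 2 with all 18 arrays and 0 to 1 without 1 array. In whole skin 2 were called, against 1 with all 18 arrays and 2 to 2 without 1 array. The cause of these changes was not tested, other than that fewer arrays enter when 1 is left out.

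Signs turned for uncalled differences, which were up to 0.90 in size on the log2 scale (Akr1a1 in the difference of the genotype effects) and −0.84 for Akr1e1 in dermis. With the mean of probe sets Akr1a1 was 0.13 and Akr1b10 −0.19 in epidermis; in dermis Akr1e1 was 0.30, Akr1a1 −0.014, Akr7a5 −0.37 and Akr1b10 0.56; in the difference of effects Akr1a1 was −0.14 and Akr1b10 0.74; between wild-type layers Akr1a1 was 0.11 and Akr1e1 −0.31. With 16 added Akr1cl in epidermis was −0.10 and Akr1c19 in the difference −0.55. With quantile normalization Akr1c13 in epidermis was 0.31 and Akr1a1 in whole skin −0.061. Without 1 array the ranges that cross 0 were, in epidermis, −0.26 to 0.32 for Akr1c13, −0.062 to 0.53 for Akr1b10 and −1.32 to 1.29 for Akr1cl, and −1.14 to 0.96 for Akr1b10 in dermis. In whole skin they were −0.22 to 0.088 for Akr1b8, −0.012 to 0.11 for Akr1a1 and −0.31 to 0.079 for Akr7a5. In the difference they were −0.44 to 1.13 for Akr1e1, −1.33 to 0.77 for Akr1b10 and −0.61 to 0.0079 for Kcnab1, and −0.28 to 0.37 for Akr1e1 between wild-type layers.

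Same-numbered arrays of the 2 genotypes had correlations of their deviations from −0.34 to 0.13, and not every pair was over 0.1 for wild-type or transgenic dermis with epidermis either, so the numbers were not taken as pairs in these comparisons. Over 9 pairs of groups, only transgenic whole skin with transgenic epidermis, which are not compared here, had all correlations over 0.1 (0.19 to 0.25). Signal near the bottom of the scale, as for Akr1c12 and for Akr1c19 and Akr1c14 in epidermis, limits what these arrays can show of those genes.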
